A study of Mus musculus with 12 samples.

Results

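The genes described here are the 10 of serine, folate and proline synthesis, Phgdh, Psat1, Psph, Shmt1, Shmt2, Mthfd2, Mthfd1l, Aldh1l2, Aldh18a1 and Pycr1, chosen by name among the 23997 rows of a gene expression table of mouse cumulus cells. Cumulus cells are the somatic cells of granulosa origin that surround the oocyte. They came from female C57BL/6J mice that either lacked ClpP (ClpP-/-, KO), the proteolytic subunit of a protease of the mitochondrial matrix, or were wild type (WT), at 3 or 6 months of age. All mice of the 4 groups, controls included, had been injected with 5 IU of PMSG, a gonadotropin from pregnant mares that drives follicle growth, and were sampled 44 h later by the treatment protocol or 48 h later by the series design. Each group held 3 libraries, each from 100 cells of 1 mouse, and the labels also carry a passage entry, P1, that they do not explain. They do not describe how the KO allele was made. Values are FPKM, fragments per kilobase of transcript scaled to the mapped fragments of the library, so levels can be compared between genes. Because the RNA is of pooled cells, fewer cells of a type and less RNA per cell cannot be told apart.

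Serine is made from the glycolytic intermediate 3-phosphoglycerate in a chain of 3 enzymes that PHGDH, PSAT1 and PSPH provide in that order. Serine hydroxymethyltransferases then split serine into glycine and a carbon unit that is carried by folate, and a mitochondrial and a cytosolic set of folate enzymes pass that unit on for purine, thymidylate and methionine synthesis. Proline is made from glutamate by the enzyme that Aldh18a1 encodes, followed by the pyrroline-5-carboxylate reductases. Many of these genes are known targets of ATF4, the transcription factor of the integrated stress response, a pathway that mitochondrial dysfunction can activate. Cumulus cells supply the oocyte with amino acids and other metabolites.

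The targeted gene separated the genotypes. Clpp stood at 88.2 to 146 FPKM in the 6 WT libraries and at 0.769 to 6.63 in the 6 KO libraries. The spacing of low values put the depth of the libraries at 0.641 to 1 of the deepest, and 9335 to 10861 genes per library reached 1 FPKM. Summed FPKM differed more, from 627194 in 6-month KO library 1 to 1366495 in 6-month KO library 3. The main fit did not rescale the values. The granulosa marker Inha stood at 2420 to 6330 FPKM in the 12 libraries. The 11 granulosa and cumulus markers summed to 2840 to 7191 FPKM, most of it Inha in each library. All the other markers of that list varied more than Inha on the log2 scale. Foxl2 ran from 0.582 to 16.1 FPKM and Fshr from 30.7 to 211. Markers of other ovarian cells were uneven. A score over 19 theca, blood and endothelial markers was 3.17, 2.45 and 3.49 log2 units above its mean in library 3 of each group but the 3-month WT (3-month KO first, 6-month KO last), and 1.03 or less in the other 9. The theca enzyme gene Cyp17a1 reached 932 and 1060 FPKM in the KO pair of these, and the macrophage lysozyme gene Lyz2 64.2, 151 and 397 FPKM in the 3. Results are therefore also given with these 3 marker-rich libraries left out. The 1.03 was that of 3-month WT library 3, which was kept. Its blood and leukocyte markers summed to 874.6 FPKM, beside 805.3 in 3-month KO library 3. Its theca and stromal markers summed to 174.3, beside 1700. Fits without the 3 libraries thus still hold a 3-month WT library with such markers.

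Cumulus cells held transcripts of all 3 serine enzymes and of most folate enzymes, while some members were barely detected. Phgdh (chromosome 3, 98313170 to 98339990, minus strand, GRCm38) and Shmt2 (chromosome 10, 127517123 to 127522444, minus strand) had the highest means over 12 libraries, 52.3 ± 23.9 and 51.4 ± 26.7 FPKM (SD, n = 12). Mthfd2, Psph, Psat1, Shmt1 and Aldh18a1 followed at 29.1, 25.7, 23.6, 16.6 and 13.5 FPKM. From one of these to the next the step in the mean was smaller than either SD. A clear drop came below Aldh18a1, to 3.02 ± 1.06 FPKM for Mthfd1l, 0.883 ± 0.572 for Pycr1 and 0.281 for Aldh1l2. Of the 10 genes 9 reached 1 FPKM in at least 3 libraries and were tested among 11196 genes. Aldh1l2 reached 1 FPKM in none.

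**Figure D1:**
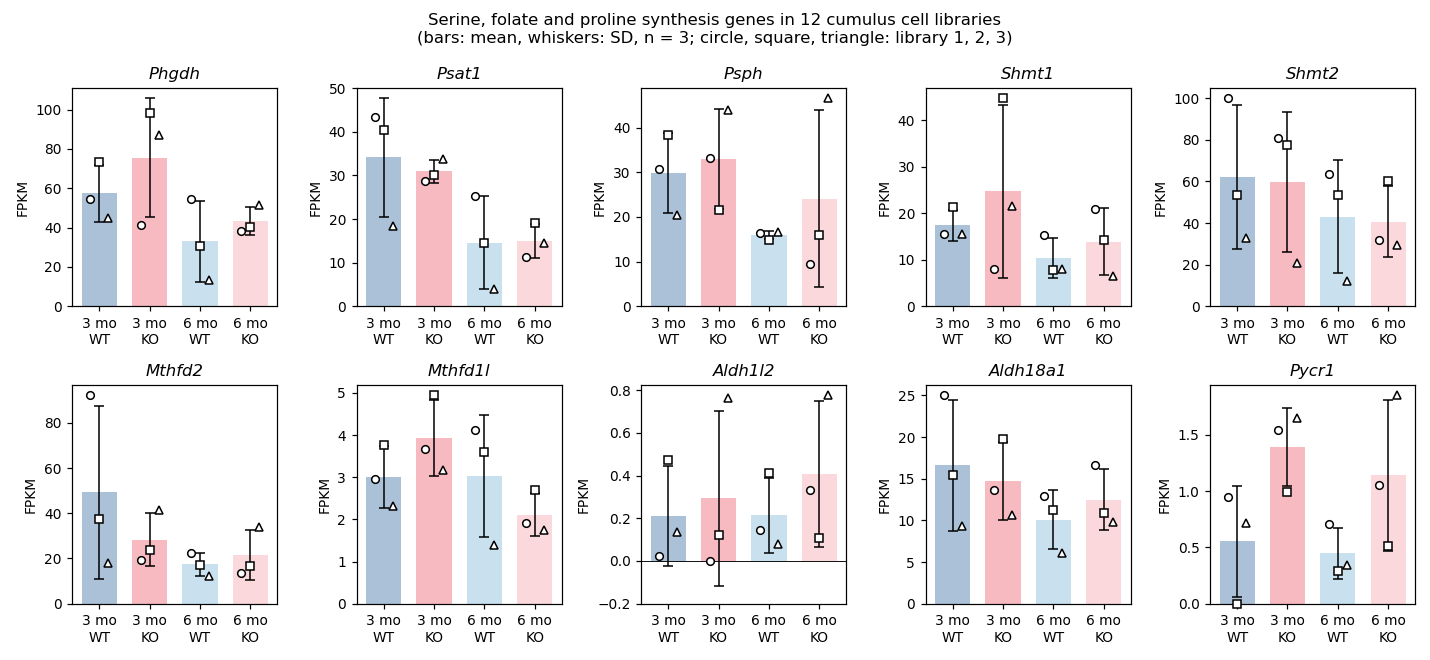
FPKM (vertical axes, each with its own scale) of the 10 genes in the 4 groups (3 or 6 months, WT or KO; horizontal axes), as group means (bars) with SD (whiskers, n = 3) and the single libraries (symbols). Psat1 lies at 28.8 to 33.8 in 3-month KO and at 11.2 to 19 in 6-month KO, and Pycr1 and Aldh1l2 stay under 2 FPKM in every library.

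The serine enzymes had lower values in the older mice, in both genotypes, without passing the test. Phgdh encodes the first and committing enzyme, 3-phosphoglycerate dehydrogenase. At 3 months it stood at 54.4, 73.1 and 44.8 FPKM in WT and at 41.3, 98.1 and 87.3 in KO. At 6 months its values were 54.6, 30.8 and 13.5 in WT and 38.2, 40.1 and 51.5 in KO. Groups of the 2 ages overlapped in both genotypes, through 6-month WT library 1 and 3-month KO library 1. The 6-month mean was 0.574 of the 3-month mean in WT and 0.572 in KO.

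Psat1 (chromosome 19, 15904678 to 15947337, minus strand) encodes phosphoserine aminotransferase, the second enzyme, and had the widest gap between ages of the 9 genes with all libraries in. Its WT values were 43.4, 40.4 and 18.5 FPKM at 3 months and 25.3, 14.5 and 3.87 at 6 months. In KO they were 28.8, 30.1 and 33.8 at 3 months and 11.2, 19 and 14.5 at 6 months. The KO groups did not overlap, whereas in WT library 3 of the 3-month group lay below library 1 of the 6-month group. On the log2(FPKM + 1) scale, which understates changes of low genes, the difference of 6 from 3 months was -1.39 in WT (SE 0.53, adjusted p = 0.664 by limma over all 11196 genes) and -1.03 in KO (SE 0.53, adjusted p = 0.745). Without 6-month WT library 3 the WT difference of Psat1 was -0.71, and Mthfd2 at -0.98 and Psph at -0.84 were then wider.

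Psph encodes phosphoserine phosphatase, the last step. At 3 months it stood at 30.7, 38.4 and 20.5 FPKM in WT and at 33.1, 21.6 and 44 in KO. At 6 months it stood at 16.4, 14.9 and 16.6 in WT, all below the 3-month WT libraries, and at 9.57, 16 and 46.6 in KO. The 46.6 of 6-month KO library 3 was the highest of all 12, in the library with the highest score for other-cell markers. What part those cells had in it was not tested. With the 3 marker-rich libraries left out, the age difference averaged over both genotypes was -0.95 for Psph, the widest of the members then tested (SE 0.26, adjusted p = 0.133 by limma).

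Of the serine hydroxymethyltransferases, which hand the carbon unit of serine to folate, the mitochondrial form Shmt2 stood above the cytosolic form Shmt1 in 11 of 12 libraries. Shmt2 ranged from 12.3 to 100 FPKM and Shmt1 from 6.5 to 44.8. Shmt1 stood at 15.6, 21.3 and 15.5 FPKM in 3-month WT and at 15.4, 7.82 and 7.93 in 6-month WT, so that the WT ages did not overlap, by the narrow margin of 15.5 to 15.4. In KO its values were 8.02, 44.8 and 21.6 at 3 months and 20.9, 14.2 and 6.5 at 6 months, with overlap. Shmt2 had the largest SE of the 9 genes tested (0.67 for a difference of groups), with values of 100, 53.4 and 33 FPKM in 3-month WT, 80.8, 77.5 and 20.9 in 3-month KO, 63.7, 53.4 and 12.3 in 6-month WT and 31.9, 60.4 and 29.6 in 6-month KO. Its library 3 was the lowest of each of the 4 groups, by a narrow margin in 6-month KO. Exons of Shmt1 overlap Smcr8 on the other strand, those of Shmt2 overlap Ndufa4l2 and those of Psph overlap Cct6a. Exons of Aldh1l2 overlap D10Wsu102e, also on the other strand. Whether the counting used strand was not given in the sources used here, so reads of these pairs may not be told apart. Phgdh has an annotated pseudogene, Phgdh-ps1, which could share its reads.

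Mthfd2 and Mthfd1l encode mitochondrial enzymes that carry the unit on to formate. Mthfd2 (chromosome 6, 83305691 to 83325908, minus strand) was led by a single library. It stood at 92.1, 37.5 and 18.1 FPKM in 3-month WT, at 19.5, 23.8 and 41.6 in 3-month KO, at 22.4, 17.3 and 12.4 in 6-month WT and at 13.5, 16.8 and 34 in 6-month KO. All groups except the 3-month WT had means between 17.4 and 28.3, and that group had 49.2 ± 38.4 (SD, n = 3). The 92.1 FPKM of 3-month WT library 1 coincided with the highest score of other integrated stress response genes, 1.88 log2 units above their mean, and their part in it was not tested. The KO-minus-WT difference of Mthfd2 at 3 months was -0.55 (SE 0.54, adjusted p = 0.857 by limma), and 0.04 without that library.

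Mthfd1l encodes the mitochondrial formyltetrahydrofolate synthetase. It stood at 2.95, 3.77 and 2.31 FPKM in 3-month WT, 3.68, 4.94 and 3.18 in 3-month KO, 4.12, 3.59 and 1.4 in 6-month WT, and 1.91, 2.69 and 1.74 in 6-month KO. The KO ages did not overlap and the WT ages did. Aldh1l2, for the mitochondrial enzyme that oxidises formyltetrahydrofolate, had values from 0, as listed in 3-month KO library 1, to 0.779 in 6-month KO library 3. All are under 1 FPKM, and Aldh1l2 was not tested.

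The proline genes differed widely in level. Aldh18a1 encodes the first enzyme of the route from glutamate, pyrroline-5-carboxylate synthase. It stood at 25, 15.5 and 9.34 FPKM in 3-month WT, 13.7, 19.8 and 10.6 in 3-month KO, 12.9, 11.3 and 6.08 in 6-month WT and 16.6, 10.9 and 9.81 in 6-month KO, with overlap between every pair of groups compared. Pycr1 (chromosome 11, 120635712 to 120643769, minus strand) encodes a mitochondrial reductase of the last step and is among the known ATF4 targets. It stood at 0.948, 0 and 0.717 FPKM in 3-month WT and at 1.54, 0.995 and 1.65 in 3-month KO. At 6 months it stood at 0.708, 0.292 and 0.344 in WT and at 1.05, 0.512 and 1.85 in KO. The 3-month KO libraries were all above the 3-month WT libraries, the nearest pair being 0.995 and 0.948, and at 6 months KO library 2 lay below WT library 1.

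Since many of these genes are known ATF4 targets, their promoters were searched for the C/EBP-ATF composite element TGATGNAA and for the E-box CACGTG, on both strands, in RefSeq windows of GRCm38.p6 from 250 bases before to 50 after each start. Of the 10 genes 9 matched, with 10 windows, and Aldh1l2 was not matched. TGATGNAA was found in 1 window, that of Pycr1, 103 bases before the start, and in 3.97% of all 32851 windows. CACGTG was found in 1, that of Aldh18a1, 59 bases before the start, and in 7.15% of all windows. The other windows hold neither of these letter strings. The 250 bases before the start of each of these genes of proline synthesis are shown 5′ to 3′ on the minus strand, for the place of the match, which is in capitals. The Pycr1 window is chr11:120643749-120643998 and the Aldh18a1 window is chr19:40588464-40588713.
Pycr1: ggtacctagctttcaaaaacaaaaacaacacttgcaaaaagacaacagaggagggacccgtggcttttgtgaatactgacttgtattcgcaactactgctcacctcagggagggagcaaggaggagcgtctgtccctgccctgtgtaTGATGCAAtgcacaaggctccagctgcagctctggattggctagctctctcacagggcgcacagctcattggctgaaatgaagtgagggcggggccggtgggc
Aldh18a1: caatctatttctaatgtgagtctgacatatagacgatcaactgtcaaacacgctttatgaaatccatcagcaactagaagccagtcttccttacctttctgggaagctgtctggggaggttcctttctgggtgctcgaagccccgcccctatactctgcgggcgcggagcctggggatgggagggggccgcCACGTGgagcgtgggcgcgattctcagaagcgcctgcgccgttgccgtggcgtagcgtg
A match of letters is a description of the sequence and not evidence of binding.

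For each enzyme with a partner of the same reaction, the same partner led in nearly every library. Mthfd2 was above its paralog Mthfd2l, at 6.44 FPKM on average, in 12 of 12. Mthfd1, the cytosolic trifunctional enzyme gene at 18 FPKM, was above Mthfd1l in 12 of 12. Aldh1l1, the cytosolic counterpart of Aldh1l2, averaged 1.4 FPKM and was the higher of the pair in 11 of 12. Pycr1 was far below the reductase gene Pycrl, at 47.6 FPKM, in all 12 libraries. The paralogs share sequence, and the rule by which reads were divided between them was not given in the sources.

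**Figure D2:**
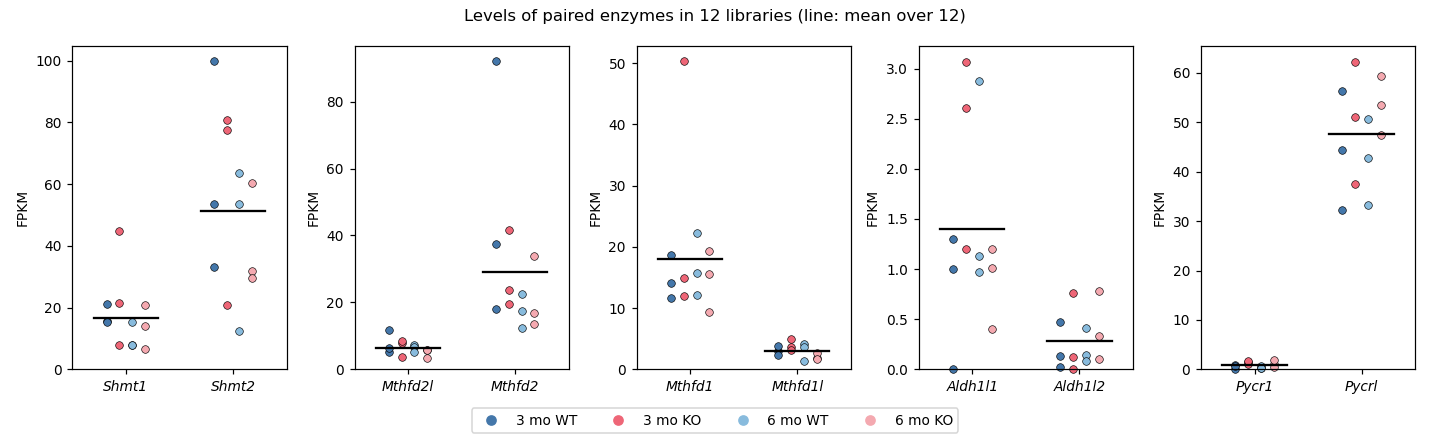
FPKM (vertical axes, each with its own scale) of enzymes of the same reaction, side by side, in the 12 libraries (points, coloured by group; line, mean over 12). Shmt2 lies above Shmt1 in 11 of 12 libraries, Mthfd2 above Mthfd2l in all 12, and Pycr1, at 0 to 1.85, lies below Pycrl in every library.

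The age comparison asks how 3 more months alter these transcripts with and without ClpP. All 9 genes tested lay below 0 for 6 against 3 months in WT, where Mthfd1l was at 0.02 under median-ratio scaling of the libraries and Pycr1 at 0.24 with a pseudocount of 0.1. In KO the 9 also lay below 0, under median-ratio scaling too. Of all genes tested, 48.1% were below 0 in WT and 49.2% in KO. The median difference of the 9 was -0.74 in WT, beside 0.03 over all genes tested, and -0.64 in KO, beside 0.01. None of the 9 passed the adjusted threshold of 0.05 in limma. Over all genes 0.00893% passed in WT and 0.0179% in KO.

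Psat1 and Mthfd2 were lower at 6 months in WT by an unadjusted p under 0.05, 2 of 9 genes beside 4.47% of all genes. In KO 0 of 9 were, beside 2.72%. The WT difference of Mthfd2 was -1.19 (SE 0.54, adjusted p = 0.664 by limma), and -0.60 without 3-month WT library 1, its highest. The ages did not overlap, with 6 months lower, for Psph and Shmt1 in WT, beside 7.81% of all genes, and for Psat1 and Mthfd1l in KO, beside 5.98%. Mthfd1l differed by -0.66 in KO (SE 0.35) and by -0.05 in WT (SE 0.35).

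A comparison of the 6 older with the 6 younger mice, averaged over genotypes, was added after these values had been seen. Psat1 differed by -1.21 (95% interval -2.03 to -0.39, adjusted p = 0.28 by limma). Phgdh differed by -0.83 (-1.55 to -0.12, adjusted p = 0.333) and Psph by -0.74 (-1.49 to -0.0036, adjusted p = 0.386). These 3 serine synthesis genes were the members at an unadjusted p under 0.05, beside 6.32% of all genes lower by that rule. For Psph 5 of the 6 older libraries lay below every younger one, and for Phgdh, Psat1 and Mthfd2 4 of 6. The count was 3 for Shmt1 and Mthfd1l, 1 for Shmt2 and Aldh18a1 and 0 for Pycr1. How often all genes reach such counts was not computed, so the counts only describe these values. All 9 genes were below 0, beside 49.3% of all genes, with a median of -0.69 beside 0.01. None passed the adjusted threshold, which 0.00893% of all genes did.

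**Figure D3:**
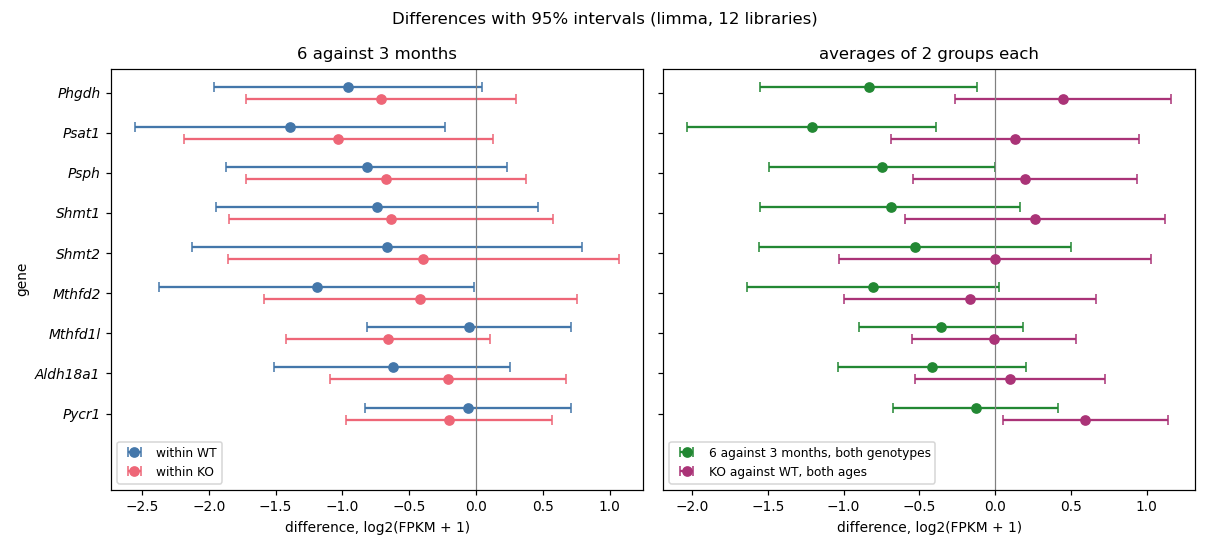
Differences in log2(FPKM + 1) (horizontal axes) of the 9 genes tested (vertical axis), as limma estimates (points) with 95% intervals (bars). Left, 6 against 3 months within WT and within KO; right, the same averaged over genotypes, and KO against WT averaged over ages. Estimates for age lie left of 0, widest for Psat1 at -1.39 in WT, and those for genotype lie on both sides.

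Single libraries weighed on the WT comparison, in both directions. The 6-month WT library 3 was the lowest of 12 for 6 of the 10 genes, with 3.87 FPKM of Psat1 and 12.3 of Shmt2, and it is 1 of the 3 marker-rich libraries. Blood and leukocyte markers summed to 1783 FPKM there, the most of any library, and theca and stromal markers to 215.4. Without it, the median age difference in WT was -0.45 in place of -0.74, and Shmt2 and Mthfd1l lay above 0, at 0.05 and 0.29. Without 3-month WT library 3 instead, which is not among the 3 marker-rich libraries, that median moved the other way, to -1.04. With all 3 marker-rich libraries left out, the medians of the 8 genes then tested were -0.52 in WT and -0.69 in KO, and Pycr1 no longer met the expression filter. The mean log2 level of the 9 genes was 0.35 above its average in 3-month KO library 3 and 0.08 below it in 6-month KO library 3.

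For loss of ClpP, the 9 genes had no common sign at 3 months. The KO-minus-WT difference was above 0 for 5 and below for 4, beside 51.2% of all genes above 0. Its median was 0.12 beside 0.01 over all genes. At 6 months the difference was above 0 for 8 and below for 1, beside 51.5% of all genes above 0. The 6-month median was 0.30 beside 0.01. That median was -0.34 with the 3 marker-rich libraries left out and 0.01 without 6-month WT library 3 alone. No member passed in limma at either age, beside 0.00893% of all genes at 3 months and 0.0268% at 6 months. By the unadjusted p of 0.05 the count was 0 of 9 at both ages. Of all genes 3.35% were higher and 3.45% lower by that p at 3 months. At 6 months 0.768% were higher and 0.456% lower.

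Pycr1 had the largest KO-minus-WT difference of the 9 at 3 months, 0.67 (SE 0.35, adjusted p = 0.768 by limma), and stood at 0.53 at 6 months (SE 0.35, adjusted p = 1), where it was not the largest. Averaged over ages it was 0.60 (95% interval 0.05 to 1.14, adjusted p = 0.783), and 0.45 to 0.71 with any 1 library left out. At this low level the size rests on the pseudocount: it was 1.41 with 0.1 and 0.19 with 5 in place of 1. It was the single member at an unadjusted p under 0.05 there, beside 3.33% of all genes higher by that rule. At 3 months it was also the single member whose genotypes did not overlap, beside 10.2% of all genes in either direction. At 6 months the genotypes overlapped for all 9, beside 6.8% of all genes that did not. Pycr1 met the expression filter through 4 KO libraries, with no WT library at 1 FPKM. Its presence among the genes tested thus already depends on its KO values. Its p-values, interval and lack of overlap for KO against WT rest on those same values, so they only describe it. The shares of all genes beside them are not limited to genes that met the filter in this way. Pycr1 is also counted among the members above 0 at both ages. With Pycr1 left out, the median of the other 8 was 0.04 at 3 months and 0.29 at 6 months.

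Averaged over ages, Phgdh came next after Pycr1, at 0.45 (95% interval -0.26 to 1.16), and Shmt2 was at -0.0007 (-1.03 to 1.03). Phgdh was at 0.19 without 6-month WT library 3 and at 0.05 with the 3 marker-rich libraries left out, where Shmt1 at 0.38 was higher. Psat1 was at 0.13 (-0.69 to 0.95) and Mthfd2 at -0.17 (-0.998 to 0.66). These intervals leave room for changes of up to 1 log2 unit in either direction for Shmt2, so the data do not show that it was unaltered. No member passed in the averaged comparison, beside 0.0179% of all genes. Whether the genotype difference itself changed with age was tested as an interaction. No member passed in it, beside 0.00893% of all genes. By an unadjusted p under 0.05 the count was 0 of 9, beside 1.05% of all genes above 0 and 0.947% below 0 by that p. The median interaction was 0.25 and turned to -0.19 without 6-month WT library 3. The genotype and age comparisons share their libraries and are not independent.

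Most pairs of members were positively correlated across libraries. Among 36 pairs of the 9 genes tested, 32 had a Pearson correlation above 0 over the 12 libraries, with a median of 0.494. It was highest for Phgdh with Psat1, the first and second steps of serine synthesis, at 0.855. Shmt2 with Aldh18a1 followed at 0.783, and Mthfd1l with Pycr1 was lowest at -0.10. These are descriptions over libraries of 4 groups that share depth and cell content. Their mean log2 level, relative to its average, was 0.65, 0.38 and -0.20 in the 3-month WT libraries and 0.16, 0.58 and 0.35 in the 3-month KO libraries. At 6 months it was 0.10, -0.34 and -1.10 in WT and -0.33, -0.16 and -0.08 in KO. Library 3 of the 3-month WT group thus stood below library 1 of the 6-month WT group, and the KO ages did not overlap. How often the mean of other sets of genes lies apart in this way was not computed.

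Of 10446 other genes with regular names, Gars, at a Pearson correlation of 0.96 with that mean over the 12 libraries, was most like the members. It encodes glycyl-tRNA synthetase. Hspa9, the mitochondrial heat shock protein 70 gene, followed at 0.957, then Polr2m at 0.948, Puf60 at 0.938 and Rnf41 at 0.927. Gars stood at 157, 93.7 and 47 FPKM in 3-month WT, 73.2, 120 and 89.4 in 3-month KO, 60.9, 44.2 and 25.4 in 6-month WT and 47.3, 50.7 and 44.5 in 6-month KO.

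**Figure D4:**
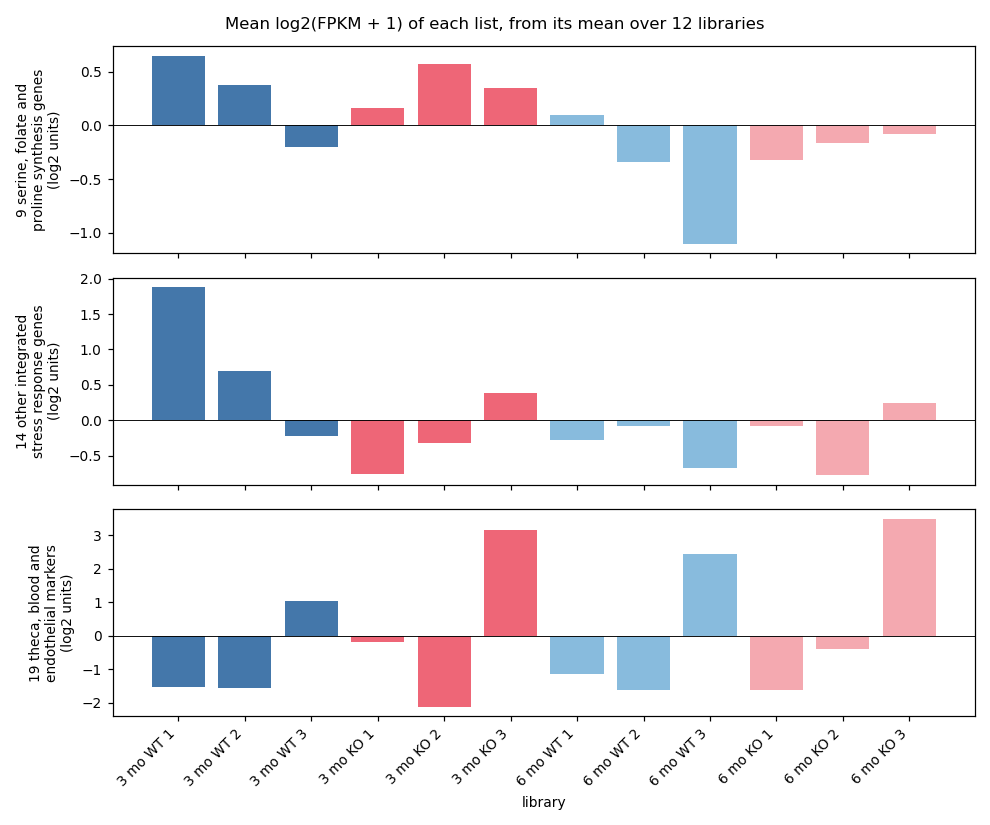
Mean log2(FPKM + 1) of 3 gene lists in each of the 12 libraries (horizontal axis), relative to its mean over all libraries (vertical axes, log2 units): the 9 genes tested, 14 other integrated stress response genes and 19 markers of theca, blood and endothelial cells. The 9 genes are lowest, at -1.10, in 6-month WT library 3, and the stress response genes highest, at 1.88, in 3-month WT library 1.

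Other genes of the integrated stress response, Atf4 among them, were mostly lower in value in 3-month KO and 6-month WT than in 3-month WT. Their mean log2 level, relative to its average, was 1.88, 0.70 and -0.23 in the 3-month WT libraries. Library 3 there thus lay below 3-month KO library 3, at 0.39, and 6-month WT library 2, at -0.08. Of 14 tested, 12 were below 0 for KO against WT at 3 months (median -0.93, with 3 at an unadjusted p under 0.05), beside 48.7% of all genes below 0 and 3.45% lower by that p. For 6 against 3 months in WT 12 were below 0 (median -1.08, with 5), beside 48.1% and 4.47%. For KO against WT at 6 months 6 were below 0 and 8 above (median 0.03), beside 48.5% of all genes below 0. None passed in limma in any of the 7 comparisons. The 3-month WT libraries are common to both of these. In KO their age median was 0.07, while that of the 9 members was -0.64. Nupr1, a stress-induced transcriptional regulator, stood at 1200 to 3640 FPKM in 3-month WT and 113 to 202 in 3-month KO. At 6 months it stood at 933, 1320 and 678 in WT and at 1890, 182 and 481 in KO, with overlap. It differed by -2.28 averaged over ages (SE 0.49, adjusted p = 0.783 by limma). Eif4ebp1, for a repressor of translation initiation, differed by -0.56 (SE 0.21, adjusted p = 0.783), from -1.16 at 3 months and 0.04 at 6 months. The difference between the lists was not tested.

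Genes around the members in metabolism also gave 0 calls in limma in all 7 comparisons. Of 16 other folate cycle genes tested, 11 lay below 0 for age averaged over genotypes (median -0.12, with 0 at an unadjusted p under 0.05 in the lower direction). Of 14 serine and glycine transport and use genes 11 did (median -0.20, with 2), of 8 other proline genes 4 (median -0.03, with 2), of 6 purine ring synthesis genes 3 (median -0.12, with 1) and of 6 methionine cycle genes 4 (median -0.08, with 1). Beside these, 49.3% of all genes lay below 0, with a median of 0.01, and 6.32% were lower by that p. For KO against WT averaged over ages, the medians of these 5 lists in the same order were 0.12, 0.12, 0.24, 0.20 and 0.14, beside 0.01 over all genes. The 2 genes with the smallest p of each list in that comparison were named by rule, with an adjusted p of 0.783 by limma for all but the purine pair. Among folate genes Slc46a1, a folate transporter, differed by 0.74 and Fpgs, which adds glutamates to folate, by 0.86. Among serine genes Sdsl, a serine dehydratase-like gene, differed by 0.62 and Cth, for cystathionine gamma-lyase, by 0.85. Among proline genes Prodh, which starts proline breakdown, differed by 0.66 and Slc25a22, a mitochondrial glutamate carrier gene, by 0.49. Mat2a, which makes S-adenosylmethionine, differed by 0.63, from 38.4 to 64.3 FPKM in WT to 73.6 to 91.5 in KO, and Mtap, of methionine salvage, by 0.54. The share of all genes whose genotypes lie apart over both ages, as those of Mat2a do, was not computed. Adsl and Pfas of purine synthesis differed by 0.37 and 0.24 (adjusted p = 0.793 and 0.832).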

How the data were processed

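Transcripts of 12 libraries of cumulus cells, 3 per genotype and age, were amplified by Smart-Seq2 from 100 cells each, built with Nextera XT and sequenced as 75 bp pairs on a HiSeq 2500, per the labels' protocols. The authors deposited FPKM values per gene, and the submitters' processing notes name the genome GRCm38/mm10 and the tools Cufflinks 1.2.1, TopHat2 2.0.10, Bowtie2 2.1.0, SAMtools 0.1.18, FastQC and cutadapt. The annotation and strand setting were not given in the sources used here. FPKM keep no read counts, so absolute depth and counting error are unknown, and low values rest on few reads.

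Genes with at least 1 FPKM in at least 3 libraries (11196 of 23997) were tested on log2(FPKM + 1) in R 4.3.3 with limma 3.58.1 (4 group means, eBayes with trend, 8 residual and 3.9 prior degrees of freedom). P-values are 2-sided and adjusted by Benjamini and Hochberg over all genes tested, with a threshold of 0.05. The method was checked on simulated data. Comparisons were KO against WT at each age and averaged, their interaction, and 6 against 3 months in each genotype. The age comparison averaged over genotypes was added after the values were seen. The members and lists were chosen with earlier results of these data known. The rule for named genes took the 10 members, Clpp, the 2 genes of smallest unadjusted p per pathway list for KO against WT averaged over ages, leading markers, and the 5 genes most correlated with the members' mean. One gene that the rule names is not reported here and is left out of its list. Theca, blood, endothelial, granulosa and oocyte markers were fixed as lists. The oocyte markers summed to 0.3619 to 208.7 FPKM, highest in 6-month KO library 3. Coordinates are from GENCODE M21. Figures were drawn in Python 3.11.15 with matplotlib 3.10.9.

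Libraries are numbered 1 to 3 in each group, and no label ties a number to an animal, litter or day. Same-numbered libraries deviated from their group means with correlations of 0.158, 0.373 and 0.465 between the 6-month genotypes, and of 0.114, 0.394 and 0.653 between the KO ages. By the rule that each exceed 0.1, numbers may be pairs in both, but the pairing is uncertain. The main fit held no replicate block in any comparison, so its values are unpaired. The paired fit is given as an alternative only. Libraries 1 and 2 correlated as highly across numbers, at 0.475 and 0.2 between the 6-month genotypes and at 0.514 and 0.364 between the KO ages. In both, library 3 of each group is marker-rich, and its part in the correlations was not tested. For the other comparisons at least 1 pair was under 0.1. Alternatives were pseudocounts, filters, library scaling, the replicate block, fits of the compared libraries alone, libraries left out and comparisons with the 3 marker-rich libraries left out.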

Additional observations from a re-analysis of the deposited data

How the results depend on the processing

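The number of members called was 0 in each of the 7 comparisons under each alternative tried, with a lowest adjusted p of 0.133, for age averaged over genotypes. Age medians stayed below 0 throughout, from -1.04 to -0.45 in WT, -0.69 to -0.38 in KO and -0.76 to -0.41 averaged. Genotype medians did not keep their sign. With the 3 libraries rich in markers of other cells left out, the median of KO against WT was -0.34 at 6 months and that of the interaction -0.22, and Pycr1 met no filter. With 1 library left out, the interaction median ran from -0.19 to 0.61.

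The paired fit, with a replicate block, gave the same differences and again called no member. By an unadjusted p under 0.05 it left 1 of 9 members lower for age in WT in place of 2, Mthfd2 no longer among them. The share of all genes lower by that p was not computed for the paired fit, so this count only describes the members. Over all genes the paired fit called 4 for age averaged over genotypes in place of 1, and in the other 6 comparisons as many as without the block. Its medians were 0.30 for KO against WT at 6 months and -0.64 for age in KO, and the adjusted p of Psat1 for age was 0.469 in WT, 0.519 in KO and 0.167 averaged.

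Over the alternatives, genes called of all tested ranged from 0 to 9 for KO against WT at 3 months (1 in the main analysis), 2 to 3 at 6 months (3), 1 to 5 averaged (2), 0 to 3 for the interaction (1), 1 to 9 for age in WT (1), 2 to 4 in KO (2) and 1 to 4 averaged (1).

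Of 760 values of genotype comparisons 72 changed sign, and of 575 of age comparisons 12. The cause was not tested. For age in WT these were Pycr1 at 0.24 with a pseudocount of 0.1, Mthfd1l at 0.0238 with median-ratio scaling, and Shmt2 at 0.0541 and Mthfd1l at 0.29 without the 3 libraries. For KO against WT averaged over ages they were Shmt2 at 0.00325 with a pseudocount of 0.1 and 0.00794 with median-ratio scaling, and, without the 3 libraries, Psat1 at -0.24, Psph at -0.21 and Shmt2 at 0.0437. With 1 library left out, values for age in WT ran from -1.09 to 0.0541 for Shmt2, -0.26 to 0.29 for Mthfd1l and -0.35 to 0.13 for Pycr1. For age in KO they ran from -0.42 to 0.0128 for Aldh18a1 and -0.43 to 0.0255 for Pycr1. For KO against WT averaged over ages they ran from -0.0703 to 0.26 for Aldh18a1, -0.18 to 0.10 for Mthfd1l, -0.44 to 0.13 for Mthfd2, -0.21 to 0.40 for Psat1, -0.11 to 0.44 for Psph, -0.0189 to 0.57 for Shmt1 and -0.36 to 0.31 for Shmt2. For Mthfd2 at 3 months they ran from -1.10 to 0.0395.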
